A study of Homo sapiens and Mus musculus with 9 samples.

Results

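The comparison described here is that of liver RNA from a fasted mouse liver that received a trans-RNA directed at ATF4 with liver RNA from a fasted mouse liver without it. The 2 libraries belong to a series of 9, in which 3 are RNA-seq of mouse liver. The first is labelled as fasting with transfection of a trans-RNA against ATF4, and the second as fasting alone. A fed liver library, with no treatment label, is given beside them for scale. All 3 are polyA RNA from wild-type mice. Strain, sex, age, length of the fast, and the dose and route of the trans-RNA are not given in the sources used here, nor is the number of animals behind a library. There was 1 library per group and no fasted liver with a control RNA. A difference between the 2 libraries was therefore not tested against the variation between animals, and an effect of the delivery itself and an effect of the trans-RNA sequence cannot be told apart. All intervals are exact 95% Clopper-Pearson intervals of read numbers, which describe counting error only and hold no variation between animals. They treat reads as independent molecules, which reads are not, so they can be too narrow even for counting error.

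ATF4 is the main transcription factor through which cells answer amino acid shortage and related stresses. Its mRNA is known for short upstream reading frames that keep its main reading frame little used until the initiation factor eIF2 is phosphorylated, after which ATF4 protein raises genes of amino acid uptake, amino acid synthesis and tRNA charging. Fasting is known to shift the liver from sugar use and fat synthesis to glucose output, fat oxidation and ketone production. The comparison asks what the trans-RNA adds to fasting at the level of mRNA.

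Transcripts entered the comparison if they had at least 1 RPKM (reads scaled by transcript length in kilobases and by library depth) in either library, with transcripts missing from a table counted as 0. This left 10017 of the 20100 transcripts listed in any of the 3 liver tables. They held 99.2% of the summed RPKM of the trans-RNA library and 99.3% of that of the fasting library. The measure was log2((trans-RNA RPKM + 1)/(fasting RPKM + 1)), so that a positive value means a higher level with trans-RNA. Transcripts are known here by their mouse Ensembl IDs, because the files and tables used do not pair these IDs with gene symbols. For the same reason Atf4 itself, its known target genes and the markers of liver cell types are not analysed here by name, and the labelled tissue was not checked against its markers.

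More transcripts were higher with trans-RNA than lower, and the largest differences were on that side too. At least 2-fold higher were 456 transcripts, or 4.55% of those compared, and at least 2-fold lower were 119, or 1.19%. At least 4-fold differences numbered 34 higher and 3 lower, and at least 8-fold differences 7 higher and 0 lower. The median log2 ratio was 0.18, with quartiles of -0.12 and 0.47. Of all transcripts compared, 6593, or 65.8%, had a higher RPKM with trans-RNA. The percentiles 1 and 99 were -1.05 and 1.5. At a lower threshold of 1.5-fold, 1838 were higher (18.3%) and 531 lower (5.3%), and at 3-fold 80 (0.799%) and 15 (0.15%). In bulk liver, a different share of a cell type and a different amount of RNA per cell cannot be told apart.

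The balance between higher and lower depended on the scaling. Relative to the median shift of 0.18, 262 transcripts (2.62%) passed 2-fold on the higher side and 215 (2.15%) on the lower, so the higher ones made up 54.9% of these transcripts, against 79.3% on the RPKM as deposited. RPKM is relative to the reads of the whole library, and the 2 most abundant transcripts took less of the summed RPKM in the trans-RNA library, 21.4%, than with fasting alone, 23.8%. Ranks 3 to 20 held 23.1% with trans-RNA and 23.1% with fasting alone, and the 20 transcripts with the highest mean had a median log2 ratio of 0.01. The most abundant transcript of all stood at 46881 RPKM with trans-RNA and 52102 RPKM with fasting alone, a log2 ratio of -0.15. With both libraries brought to a common sum without those 20, the median log2 ratio of all transcripts was 0.11, with 370 at least 2-fold higher and 142 lower.

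**Figure D1:**
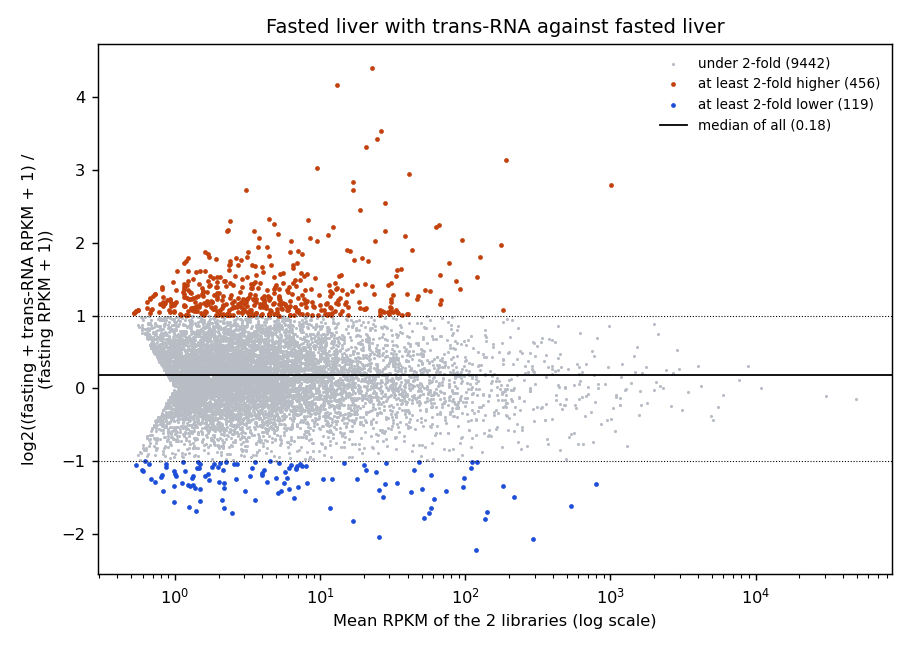
Each point is 1 of 10017 transcripts, with its mean RPKM in the trans-RNA and the fasting library on the x axis (log scale) and its log2 ratio, trans-RNA over fasting, on the y axis. Dotted lines mark 2-fold and the solid line the median of 0.18; the points reach 4.40 above and -2.22 below.

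The highest 2 and lowest 2 transcripts with at least 10 RPKM in either library are given by library. The ratio of trans-RNA to fasting chose them, so the distance between those 2 libraries describes the choice. ENSMUST00000044094 had 44.2 RPKM with trans-RNA, 1.13 RPKM with fasting alone and 74.4 RPKM in the fed liver, from 875, 19 and 1323 reads. The fasting library stood far below the other 2. With trans-RNA this transcript was 38.9-fold higher than with fasting alone (24.8 to 65.0), a log2 ratio of 4.40 with 1 RPKM added to each side.

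ENSMUST00000029046 had 25.5 RPKM with trans-RNA, 0.469 RPKM with fasting alone and 51.2 RPKM in the fed liver. Here the fasting value rests on 5 reads, against 322 with trans-RNA and 580 in the fed liver. The fold of trans-RNA over fasting was 54.4 with a wide interval (23.1 to 169), and the log2 ratio was 4.17. Because 1 RPKM is large beside 0.469 RPKM, the log2 ratio understates this difference.

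Of the lowest, ENSMUST00000034215 had 41.2 RPKM with trans-RNA, 196 RPKM with fasting alone and 12.1 RPKM in the fed liver. It was lower with trans-RNA by a factor of 4.76 (4.18 to 5.44), on 289 and 1163 reads in the trans-RNA and fasting libraries. ENSMUST00000034585 had 113 RPKM with trans-RNA, 477 RPKM with fasting alone and 19.1 RPKM in the fed liver. It was lower with trans-RNA by a factor of 4.23 (4.05 to 4.41), on 2621 and 9361 reads. For both transcripts the fasting library was the highest of the 3 and the trans-RNA library lay between it and the fed one. In each of the 4 cases the interval of the fold lay beyond 2, which follows largely from their choice as the most extreme ratios of these same reads.

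**Figure D2:**
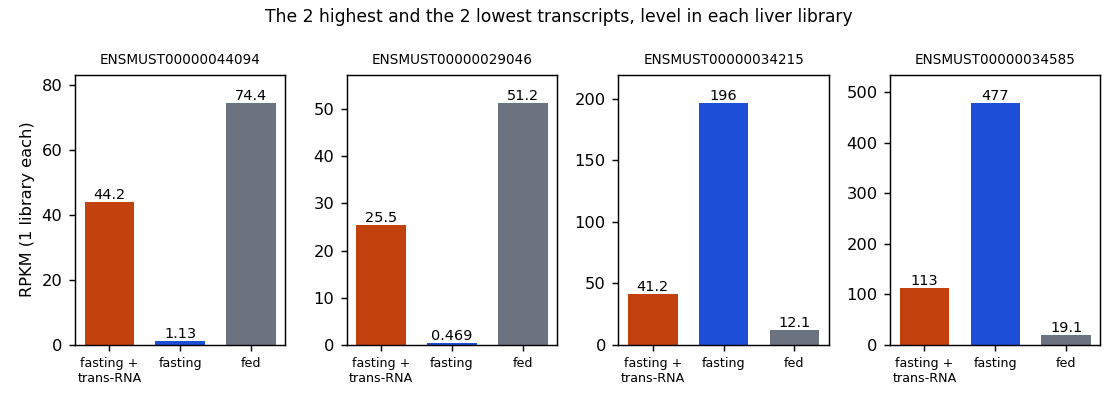
Bars give the RPKM of 4 transcripts in the trans-RNA, fasting and fed liver libraries, 1 library each, on a linear axis per transcript that starts at 0. The left pair is lowest in the fasting library, at 1.13 and 0.469 RPKM, and the right pair is highest there, at 196 and 477 RPKM. The 4 were chosen as the most extreme ratios of trans-RNA to fasting.

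The 10 highest transcripts with at least 10 RPKM in either library had log2 ratios of 2.79 to 4.40. Their levels had a median of 44.9 RPKM with trans-RNA (range 17.7 to 1758), 3.33 RPKM with fasting alone (0.469 to 253) and 61.7 RPKM in the fed liver (19.0 to 2400). The 10 lowest had log2 ratios of -2.22 to -1.64. Their median was 26.6 RPKM with trans-RNA (range 5.18 to 113), 87.4 RPKM with fasting alone (18.3 to 477) and 7.79 RPKM in the fed liver (0.298 to 20.6). The ratio of trans-RNA to fasting chose both sets, so the levels in those libraries describe the choice. A fasting value off by error would also stand apart from the fed library. Among the 2271 transcripts with at least 10 RPKM in either library, 148 were at least 2-fold higher with trans-RNA, or 6.52%, and 44 lower, or 1.94%.

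The balance differed by level, and among the most abundant transcripts more were lower than higher. Of 320 transcripts with a mean of 100 RPKM or more in the 2 libraries, 6 were at least 2-fold higher with trans-RNA and 11 lower, which is 1.88% and 3.44%. Their median log2 ratio was -0.01, against 0.18 over all transcripts, and relative to that overall median 5 were higher and 15 lower. Between 10 and 100 RPKM, 104 of 1704 were higher and 27 lower, with a median of 0.14. Between 1 and 10 RPKM, 309 of 7162 were higher and 66 lower, with a median of 0.18. Under 1 RPKM, 37 of 831 were higher and 15 lower, with a median of 0.34, and relative to the overall median this turned to 15 higher and 35 lower. By construction, every transcript of this class had 1 library at 1 RPKM or more and the other under 1 RPKM. Its ratios are thereby pushed away from 0, so its median cannot be set beside those of the other classes.

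Among the abundant transcripts, the 6 that were higher with trans-RNA were led by one with 341 RPKM with trans-RNA, 37.7 RPKM with fasting alone and 469 RPKM in the fed liver, a fold of 9.03 (8.35 to 9.78). Next was a transcript of 1758 RPKM with trans-RNA, 253 RPKM with fasting alone and 2400 RPKM in the fed liver, 6.95-fold higher with trans-RNA than with fasting alone (6.58 to 7.33). These are the only transcripts of this class beyond 4-fold on the higher side. The other 4 were 3.94-fold, 3.54-fold, 2.93-fold and 2.11-fold higher. The last of them was highest in the trans-RNA library, with 247 RPKM, against 117 RPKM with fasting alone and 167 RPKM in the fed liver.

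Of the 11 abundant transcripts that were lower, the 2 lowest are ENSMUST00000034215 and ENSMUST00000034585, described above. The highest level among them was 453 RPKM with trans-RNA, 1130 RPKM with fasting alone and 223 RPKM in the fed liver, lower with trans-RNA by a factor of 2.50 (2.44 to 2.56). Another had 265 RPKM with trans-RNA, 812 RPKM with fasting alone and 85.6 RPKM in the fed liver, a factor of 3.07 (2.99 to 3.15). The one nearest to 2-fold had 79.1 RPKM with trans-RNA, 161 RPKM with fasting alone and 82.6 RPKM in the fed liver, and its interval of 1.88 to 2.19 takes in values below 2.

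**Figure D3:**
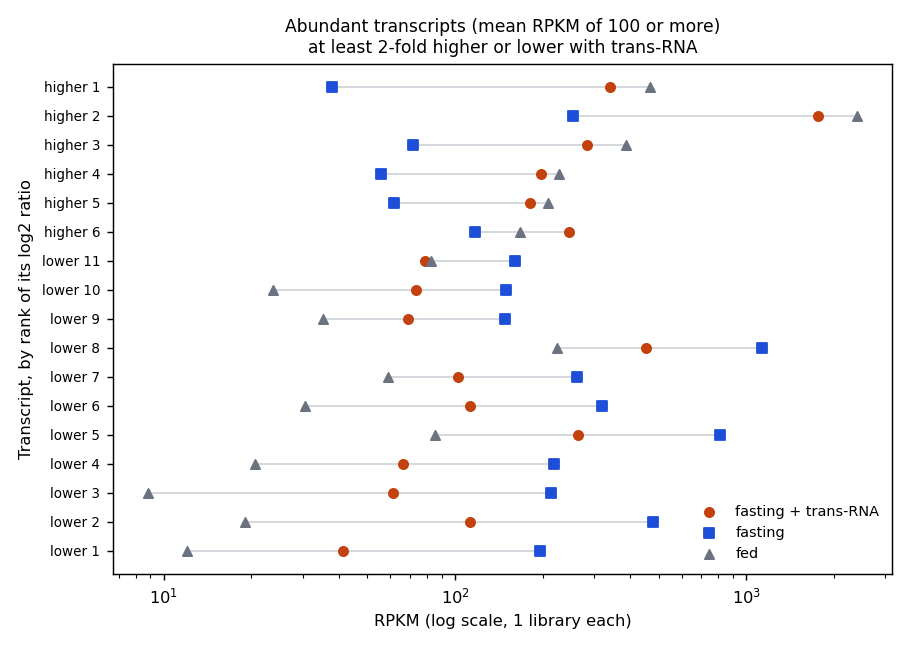
Each row is 1 of the 17 transcripts with a mean of 100 RPKM or more that were at least 2-fold higher (6) or lower (11) with trans-RNA, ordered by log2 ratio, with its RPKM in the 3 liver libraries on a log axis. Rows at the top have the fasting library lowest, and rows at the bottom have it highest.

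Among all 10017 transcripts compared, the median was 3.37 RPKM with trans-RNA, 2.83 RPKM with fasting alone and 3.53 RPKM in the fed liver, so the fasting library was lowest there too. Over all 456 transcripts on the higher side, the median was 5.86 RPKM with trans-RNA (quartiles 2.95 and 14.1), 1.67 RPKM with fasting alone (0.569 and 4.41) and 5.73 RPKM in the fed liver (2.25 and 16.3). Summed, they made up 2.51% of the RPKM with trans-RNA, 0.721% with fasting alone and 2.99% in the fed liver. Over the 119 that were lower, the median was 2.07 RPKM with trans-RNA (0.477 and 12.7), 5.97 RPKM with fasting alone (2.41 and 31.2) and 2.05 RPKM in the fed liver (0.464 and 7.06). Their summed shares were 0.594%, 1.69% and 0.294% in the same 3 libraries. The trans-RNA and fasting values chose these transcripts, so those levels describe the choice. The fed level was not used for it, but a transcript whose fasting value was low or high by error would stand apart from the fed library as well as from the trans-RNA library. With 1 fasting library this cannot be told apart from a change with fasting.

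**Figure D4:**
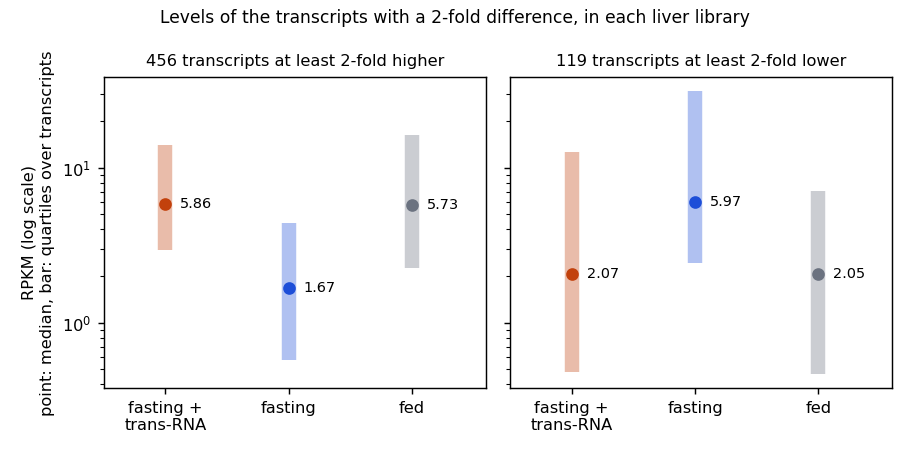
Points give the median RPKM and bars the quartiles over the transcripts that passed 2-fold with trans-RNA, 456 higher (left) and 119 lower (right), in each liver library, on a log axis. The fasting library stands apart at 1.67 RPKM on the left and 5.97 RPKM on the right, while the trans-RNA and fed medians are 5.86 and 5.73 RPKM on the left and 2.07 and 2.05 RPKM on the right. The trans-RNA and fasting values chose these transcripts, so the distance between those 2 libraries describes the choice. On the right, the quartiles are 0.477 and 12.7 RPKM with trans-RNA and 0.464 and 7.06 RPKM in the fed liver. Over all 10017 transcripts compared, not drawn, the medians are 3.37 (trans-RNA), 2.83 (fasting) and 3.53 RPKM (fed).

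The other comparisons the liver tables allow share a library with this one, so their counts stand beside it as values only. Fasting against fed gave 445 transcripts at least 2-fold higher and 1070 lower among 10200, which is 4.36% and 10.5%, with a median log2 ratio of -0.28. The trans-RNA library against fed gave 337 higher and 330 lower among 10347, which is 3.26% and 3.19%, with a median of -0.08.

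Counting intervals describe the depth behind the 2-fold differences. They come from the same reads that chose these transcripts, so that most lie beyond 1 follows largely from the choice. The interval of the ratio lay above 1 for 453 of the 456 higher transcripts and wholly beyond 2-fold for 308. It lay below 1 for 118 of the 119 lower ones and wholly beyond 2-fold for 83. The interval is of the ratio of reads, without the 1 RPKM added to each side. That ratio lies further from 1 than the ratio used for the 2-fold limit, above all at low levels. The higher and lower transcripts had medians of 181 and 148 reads over the 2 libraries together, against 225 over all 10017 compared. Fewer than 10 reads in the 2 libraries together were behind 7 of the higher and 4 of the lower transcripts, against 24 of all 10017 compared. Of transcripts with under 30 such reads, 13% were at least 2-fold higher and 5.62% lower. From 100 to 1000 reads the shares were 3.62% and 0.604%, and at 1000 reads or more 5.1% and 2.07%.

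Short transcripts more often differed by at least 2-fold than long ones, and they also had fewer reads and higher RPKM. Lengths were recovered from the RPKM values and used for the 9841 transcripts with at least 30 reads in the 3 libraries together. Under 1000 nt, 83 of 768 transcripts were at least 2-fold higher, or 10.8%, and 14 lower. The class had medians of 70 reads with trans-RNA and 51 with fasting alone. At 4000 nt or more, 67 of 2869 were higher, or 2.34%, and 7 lower, at medians of 220 and 153 reads in the same 2 libraries. Median levels were 7.39 RPKM with trans-RNA and 6.24 RPKM with fasting alone under 1000 nt. At 4000 nt or more they were 2.85 and 2.41 RPKM, where the 1 RPKM added to each side weighs more. The parts of read number and of level in this difference were not tested. The median log2 ratio was 0.20 under 1000 nt, 0.17 from 1000 to 2000 nt, 0.17 from 2000 to 4000 nt and 0.18 at 4000 nt or more. Among transcripts with at least 10 RPKM in either library, the higher ones made up 5.17% under 1000 nt, 7.46% from 1000 to 2000 nt, 6.56% from 2000 to 4000 nt and 6.03% at 4000 nt or more. Median reads with trans-RNA were 276 in the shortest and 1493 in the longest of these classes.

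**Figure D5:**
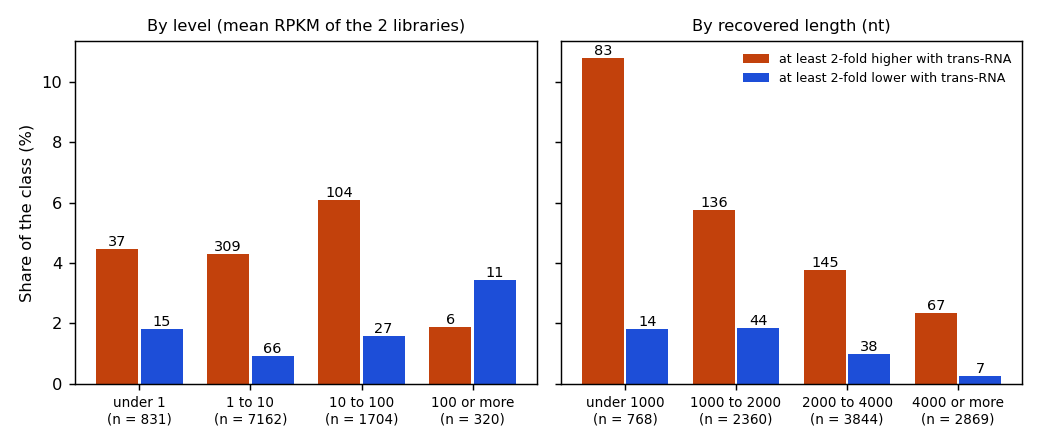
Bars give the share of transcripts (%) that passed 2-fold with trans-RNA in either direction, by mean RPKM (left) and by recovered length in nt (right), with the number of transcripts on each bar and the class size under it. Lower transcripts outnumber higher ones in the class of 100 RPKM or more, 11 to 6, and the share of higher ones goes down with length from 10.8% to 2.34%. Read numbers and levels also differ between the length classes.

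Transcripts found in 1 of the 2 libraries alone had low levels. The trans-RNA library listed 19374 transcripts and the fasting library 18615, at depths of 12788676 and 10807868 reads. Listed with trans-RNA and not with fasting alone were 1213 transcripts, with a median of 2 reads and at most 2.46 RPKM. Listed with fasting alone and not with trans-RNA were 454, with a median of 1 read and at most 1.96 RPKM. Reads recovered from few libraries can come out too small by a factor shared with the length, so these medians are lower limits. Of the transcripts compared, 17 were at 0 with fasting alone and 7 at 0 with trans-RNA. All 24 count as at least 2-fold by construction, since 1 RPKM against 0 gives a ratio of 2 after 1 is added to both sides. The best covered of the 17 had 29 reads with trans-RNA and was 8.17-fold higher with 0 reads in the fasting library set to a floor of 3. The best covered of the 7 had 13 reads with fasting alone and was 5.13-fold lower with trans-RNA by the same floor. These folds are not lower limits, since they give no counting error to the 29 and 13 reads.

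Transcripts near the minimum of 1 RPKM had the following values. The 398 transcripts whose higher value was from 1 to 1.1 RPKM had a median log2 ratio of 0.16 and a range of -1.05 to 1.06. The 404 whose higher value was from 0.9 to 1 RPKM, just outside, had a median of 0.13 and a range of -0.99 to 0.99. With 1 RPKM added to each side, the higher value limits the size of a ratio, so these ranges are bounded by construction.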

How the data were processed

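The 3 liver libraries were analysed, 1 per group. Per the submitters' processing notes, bcl2fastq 2.20.0.422, cutadapt 2.8, Bowtie 1.2.3, STAR 2.7.10a and the build GRCm39 were used, with no role or order; the sources used here do not name the counter or annotation. The deposited tables hold RPKM and TPM per transcript, per the file headers; the authors' TPM is a constant multiple of the RPKM in each library.

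RPKM is proportional to reads over length times depth, so depth, reads and lengths were recovered as fractions in lowest terms, with a largest relative error of 2.42e-14. Depth was 12788676 reads for trans-RNA, 10807868 for fasting and 11475229 for fed. The recovered reads of listed transcripts were 97.7%, 97.7% and 97.6% of it. Where reads and length share a factor, both come out too small by it; the ratio keeps its value and its interval is then too wide. One read on 1000 nt is 0.0782, 0.0925 and 0.0871 RPKM in the same order.

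Differences are log2((a + 1)/(b + 1)), and 2-fold is a limit of size only: no test was run, since nothing was replicated. Named transcripts were the 2 highest and 2 lowest with at least 10 RPKM in either library, the rule set for IDs without symbols; gene lists could not be used. Members, lists and rules were chosen with earlier results of these data known. Scripts used Python 3.11.15, numpy 2.4.6, pandas 2.3.3 and scipy 1.17.1 and were tested on simulated data. The alternatives tried were other pseudocounts, minimum levels, scalings and fold thresholds, TPM, and ratios of recovered reads.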

Additional observations from a re-analysis of the deposited data

How the results depend on the processing

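More transcripts were at least 2-fold higher than lower with trans-RNA under every alternative run, but the numbers and the balance moved. Counts are given as higher and lower, against 456 and 119 in the report. They were 1237 and 347 with a pseudocount of 0.1, 84 and 28 with a pseudocount of 5, and 885 and 261 with TPM. TPM is a larger constant multiple of the same values, so adding 1 to it acts mainly as a smaller pseudocount. A minimum of 5 RPKM in either library gave 253 and 64, and 1 RPKM in both gave 289 and 72, where fewer transcripts are compared. Centring on the median gave 262 and 215, and a TMM (trimmed mean of M values, unweighted) factor gave 250 and 206. A threshold of 1.5-fold gave 1838 and 531, and 3-fold gave 80 and 15. Ratios of recovered reads at least 2-fold with an interval beyond 1 gave 1333 and 371. No minimum left both counts as they were by construction, since a transcript under 1 RPKM in both libraries cannot reach 2-fold with 1 added. A common sum without the 20 most abundant transcripts gave 370 and 142.

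The median log2 ratio was 0.23 with a pseudocount of 0.1, 0.087 with a pseudocount of 5, 0.098 with no minimum, 0.14 with 1 RPKM in both libraries and 0.20 with TPM. It was 0 by construction after centring. With the TMM factor it was -0.0079, but that factor is itself the trimmed centre of these ratios, so a value near 0 was fixed in advance. The median was 0.11 without the 20 most abundant transcripts and 0.24 on recovered reads. Its sign was thus positive except where the scaling removed the centre of the ratios, and no scaling could be checked against a replicate. Minimum levels and fold thresholds cannot change the ratio of a transcript. Under the 7 alternatives that can, the 28 values of the 4 named transcripts, which were picked as the most extreme, kept their direction and were at least 2-fold; ENSMUST00000029046 has no value at 1 RPKM in both libraries. Their log2 ratios ran from 3.0 to 5.28 for ENSMUST00000044094, 2.48 to 5.77 for ENSMUST00000029046, -2.46 to -2.12 for ENSMUST00000034215 and -2.31 to -2.03 for ENSMUST00000034585. No paired analysis was possible because each group has 1 library, and no library could be left out.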
